A study of Mus musculus with 24 samples.

Results

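Gene expression in epididymal fat of MUT mice was compared with that of CON mice at circadian time 19 (CT19), which lies in the animals' subjective night. The comparison was chosen by genotype and sampling time alone and rests on 6 of the 24 arrays of the series, 3 MUT and 3 CON, 1 array per mouse. MUT mice were Syt10-Cre/Cre x Bmal1-flox/- and CON mice were Syt10-Cre/Cre x Bmal1-+/-, so both genotypes carried Cre on both copies of Syt10 and 1 null Bmal1 allele. They differed in the other Bmal1 allele, floxed in MUT and wild type in CON. Mice were held for 2 weeks in a light-dark cycle, released into constant darkness and killed on the second day, and the other 18 arrays hold both genotypes at CT1, CT7 and CT13. The labels used here give neither age nor sex. The series title places the ablated clock in the suprachiasmatic nucleus, the hypothalamic pacemaker. Fat is therefore not the targeted tissue, and the level of Bmal1 (Arntl on the array) in fat does not check the deletion.

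The circadian clock is a feedback loop in which ARNTL and CLOCK activate genes through E-boxes, and the PER and CRY proteins made from these genes shut the activators off. A further loop runs through the REV-ERB nuclear receptors, Nr1d1 and Nr1d2, which repress Arntl. Adipocytes have such a clock of their own, and they also answer to feeding and insulin, which turn on the synthesis of fatty acids and triglycerides, and to fasting, which turns on the release of fatty acids.

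The CT19 arrays had medians of 7.802 to 7.873 and values from 4.171 to 14.36 on the log2 scale, and correlated with each other at 0.9827 to 0.9954. One label field reads mediobasal hypothalamus, whereas titles and treatment text name eWAT. Defining genes of adipocytes were at the median 99.9th percentile of signal on these 6 arrays (log2 13.37), and those of hypothalamus and neurons were at the 41.8th (log2 7.85). CON replicate 2 stood apart. It had the lowest mean correlation of the 24 arrays with arrays outside its own group, 0.9869, and it was the CON array farthest from the MUT mean in 77.4% of the genes called below, against 48.2% of all genes tested. Of the 104 genes named by a rule given below, 45 were called at CT19. The call was lost in 29 of the 45 without this array, and this is said beside them or their list.

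Of 15526 genes tested with limma, 425 differed between MUT and CON at an adjusted p under 0.05 and are termed called (2.74%). The level was higher in MUT in 299 of them (1.93%) and lower in 126 (0.812%). The median size of a called difference was 0.39 on the log2 scale, and 72 called genes differed by at least 1.5-fold, 36 in each direction. With the arrays shifted to the same median the split was 563 higher and 99 lower, so the share of higher calls depends on the scaling. Without CON replicate 2, 36 genes were called (0.232%), 18 higher and 18 lower (0.116% each), 35 of them among the 425. All 425 differences kept their sign without that array, and the median ratio of the difference without it to the difference with it was 0.861. Without MUT replicate 1 or 2 the count was 50 or 61, and 29 genes were called whichever of the 6 CT19 arrays was left out. The genes with the lowest unadjusted p were a clock repressor, Nr1d1, and 3 genes lower in MUT, Ppp1r3c, Bhlhe40 and Angptl8.

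**Figure D1:**
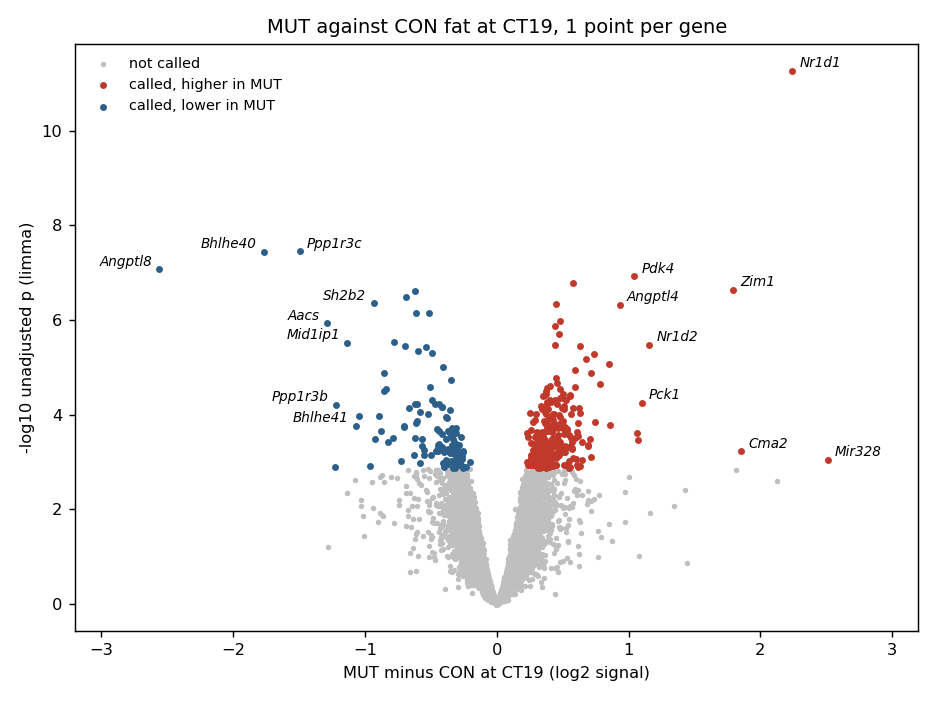
Each point is 1 of the 15526 genes tested, with the MUT minus CON difference at CT19 in log2 signal on the x axis and -log10 of limma's unadjusted p on the y axis. The 299 genes called higher in MUT are red and the 126 called lower are blue, with Nr1d1 highest on the y axis and Angptl8 farthest to the left.

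The clock genes differed in both directions. Of 20 clock genes tested, 7 were called, 2 higher and 5 lower in MUT. Over all genes tested, 2.74% were called, 1.93% higher and 0.812% lower. The 2 REV-ERB genes rose, and Bhlhe40, Bhlhe41, Cry1, Nfil3 and Usp2 fell. The calls fell on 5 of 9 repressors and 2 of 7 output genes, while none of the 4 activators tested was called, and 1 of them, Arntl, was at an unadjusted p under 0.05. Per2, Lonrf3 and Por were not among the genes tested. The promoters of these genes are shown because E-boxes and ROR elements are the binding letters of the 2 loops. RefSeq (GRCm38.p6) gave a 300-base window, 250 bases before the annotated start and 50 after it, for 6 of the 7 called clock genes, and none for Bhlhe40. The E-box was searched as CACGTG and the ROR element core as TAGGTCA or TGGGTCA, on both strands. These motifs do not overlap in letters. An E-box lay in 2 of the 6 windows, Cry1 and Bhlhe41, and a ROR element core in 1, Nfil3, against 7.15% and 6.45% of all 32851 windows. Positions count from 0 at the first base after the 250 upstream bases, and the motifs began at -60 in Cry1, -153 in Bhlhe41 and -12 in Nfil3. The windows lay on the minus strand at chr10:85185005-85185304 for Cry1, chr6:145865371-145865670 for Bhlhe41, chr13:52980990-52981289 for Nfil3 and chr11:98775328-98775627 for Nr1d1, whose window held neither motif. Capitals mark the motif.
Cry1: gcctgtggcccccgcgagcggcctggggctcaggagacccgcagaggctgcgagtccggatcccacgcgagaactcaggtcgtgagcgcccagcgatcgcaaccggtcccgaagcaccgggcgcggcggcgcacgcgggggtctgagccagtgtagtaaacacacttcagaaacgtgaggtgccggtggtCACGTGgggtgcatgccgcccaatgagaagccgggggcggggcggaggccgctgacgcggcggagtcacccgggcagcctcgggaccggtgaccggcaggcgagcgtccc
Bhlhe41: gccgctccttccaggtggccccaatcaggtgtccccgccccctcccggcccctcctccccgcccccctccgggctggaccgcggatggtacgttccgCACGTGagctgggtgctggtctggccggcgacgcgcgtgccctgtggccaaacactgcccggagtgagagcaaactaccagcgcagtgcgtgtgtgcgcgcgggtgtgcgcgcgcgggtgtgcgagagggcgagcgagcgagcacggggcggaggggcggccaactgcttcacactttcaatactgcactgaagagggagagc
Nfil3: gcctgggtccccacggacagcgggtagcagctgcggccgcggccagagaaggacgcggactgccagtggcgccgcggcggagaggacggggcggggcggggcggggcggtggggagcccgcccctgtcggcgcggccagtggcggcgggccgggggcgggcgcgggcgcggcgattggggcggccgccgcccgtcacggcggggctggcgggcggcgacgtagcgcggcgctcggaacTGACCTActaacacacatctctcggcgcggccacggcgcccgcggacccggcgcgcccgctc
Nr1d1: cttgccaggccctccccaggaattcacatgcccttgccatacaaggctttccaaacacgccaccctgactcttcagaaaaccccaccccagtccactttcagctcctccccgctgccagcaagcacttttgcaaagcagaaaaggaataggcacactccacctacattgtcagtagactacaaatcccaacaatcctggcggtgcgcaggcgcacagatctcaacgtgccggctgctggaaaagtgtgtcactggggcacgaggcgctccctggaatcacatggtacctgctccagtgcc

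Nr1d1, which encodes REV-ERB alpha, had log2 signals of 11.95, 11.81 and 11.24 in MUT fat, against 9.54, 9.12 and 9.61 in CON fat. Every MUT array lay above every CON array. The difference was 2.24 ± 0.17 (SE, n = 3 per group), which is 4.73-fold (adjusted p = 8.43e-08), and it was 2.09 without CON replicate 2. Nr1d2, which encodes REV-ERB beta, had 9.76, 9.71 and 8.91 in MUT and 8.26, 7.97 and 8.68 in CON. The groups were again separate, and the difference was 1.16 ± 0.19 (adjusted p = 0.00233). Both genes were called with any 1 of the 6 arrays left out. Arntl, the target of both receptors, had 8.96, 9.12 and 9.38 in MUT and 9.52, 9.64 and 9.46 in CON. Its groups did not overlap, but its difference of -0.39 ± 0.14 did not pass the test (adjusted p = 0.119).

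Bhlhe40 encodes DEC1, a repressor that binds E-boxes and is also induced by insulin and hypoxia in other settings. It had 9.08, 9.42 and 8.67 in MUT and 10.8, 10.93 and 10.74 in CON, and all CON arrays lay above all MUT arrays. It fell by 1.77 ± 0.22 (adjusted p = 0.00019). Its paralog Bhlhe41, DEC2, had 8.34, 8.13 and 7.78 in MUT and 9.45, 9.4 and 8.61 in CON. It fell by 1.07 ± 0.24 (adjusted p = 0.0224), a call kept in 1 of the 6 omissions of an array and lost without CON replicate 2 (-0.94, adjusted p = 0.173). Cry1, the repressor of CLOCK and ARNTL, had 8.17, 8.42 and 8.51 in MUT and 8.83, 9.06 and 9.06 in CON. It fell by 0.62 ± 0.09 (adjusted p = 0.000793), and the groups did not overlap.

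Among the output genes, Usp2, a ubiquitin-specific protease, had 8.76, 8.84 and 8.91 in MUT and 9.37, 9.47 and 9.47 in CON. The gap between the groups exceeded the spread within either, and Usp2 fell by 0.60 ± 0.10 (adjusted p = 0.00266). Nfil3, a repressor of D-box genes and a target of REV-ERB, had 8.69, 8.88 and 8.84 in MUT and 9.2, 9.24 and 9.33 in CON. It fell by 0.45 ± 0.10 (adjusted p = 0.0232), a call kept in 2 of the 6 omissions and lost without CON replicate 2 (adjusted p = 0.135). The D-box activators did not pass the test. Dbp differed by 0.49 (adjusted p = 0.0994), Hlf by -0.12 and Tef by -0.01. Neither did Per1 at 0.37 (adjusted p = 0.13), Per3 at 0.17, Cry2 at -0.16 and Ciart at -0.13. The remaining activators, Clock at 0.18, Npas2 at -0.23 and Rora at 0.18, and the outputs Wee1 at -0.20 and Tspan4 at -0.06 were not called either.

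**Figure D2:**
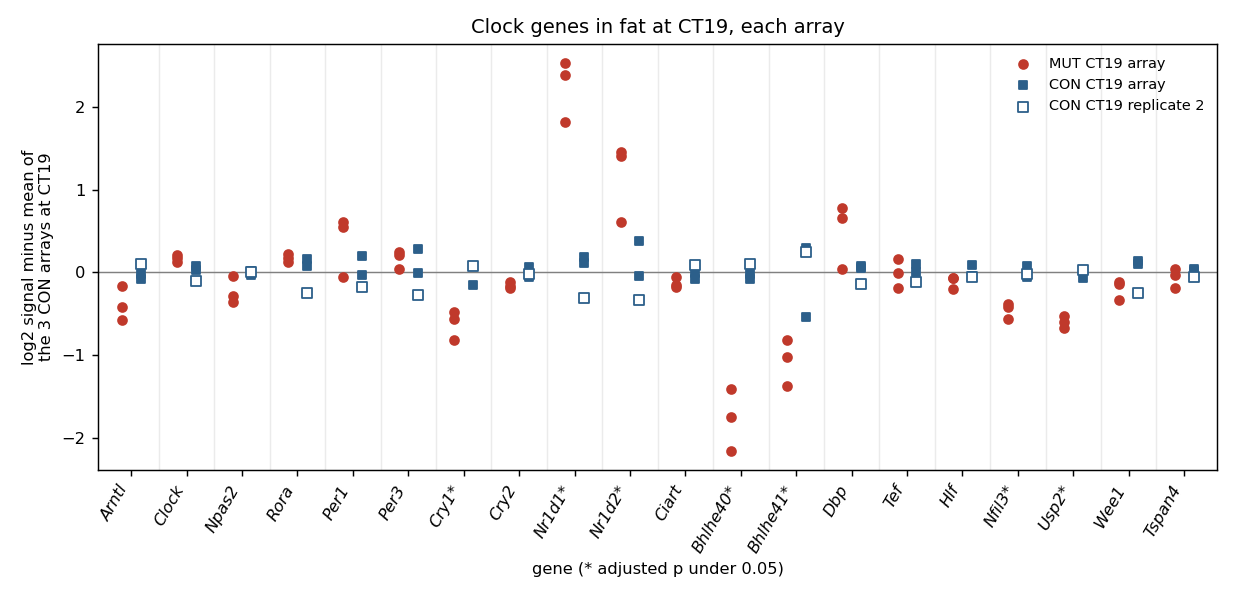
Each point is 1 array at CT19, as log2 signal minus the mean of the 3 CON arrays, for each clock gene, with MUT as circles to the left of CON as squares and CON replicate 2 as an open square. Nr1d1 and Nr1d2 lie above the CON arrays and Bhlhe40, Bhlhe41, Cry1, Nfil3 and Usp2 below them, with stars on the genes whose adjusted p was under 0.05.

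The CT19 differences of clock genes were set against those at the other times. For Nr1d1 the MUT means were 11.73, 10.83 and 9.995 at CT1, CT7 and CT13, with CON means of 12.04, 12.23 and 10.06, so MUT was above CON at CT19 only. The MUT minus CON difference at CT19 exceeded the mean of the differences at the other 3 times by 2.84 for Nr1d1 (adjusted p = 1.32e-08) and by 1.55 for Nr1d2 (adjusted p = 0.000457). For Bhlhe40 the corresponding value was -2.31 (adjusted p = 2.11e-05), with a mean difference of 0.55 at the other times. Usp2, Bhlhe41, Nr1d2 and Bhlhe40 differed in the CT19 direction at 1 of the other times as well. Usp2 was lower in MUT at CT13 (9.33 in MUT, 9.89 in CON) and Bhlhe41 at CT7 (8.62 in MUT, 9.17 in CON). Nr1d2 was higher in MUT at CT1 (9.88 in MUT, 9.64 in CON), and Bhlhe40 slightly lower at CT7 (9.60 in MUT, 9.66 in CON). The mean difference at the other times was -0.05 for Cry1 and 0.31 for Nfil3. Differences at single times other than CT19 were not tested. This contrast called 291 genes (1.87%), and 151 genes were called by it and at CT19, all in the same direction, which is 35.5% of the CT19 calls and 51.9% of the others. It shares the CT19 arrays with the comparison above, so the 2 counts are not independent. Without CON replicate 2 it called 40 genes.

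**Figure D3:**
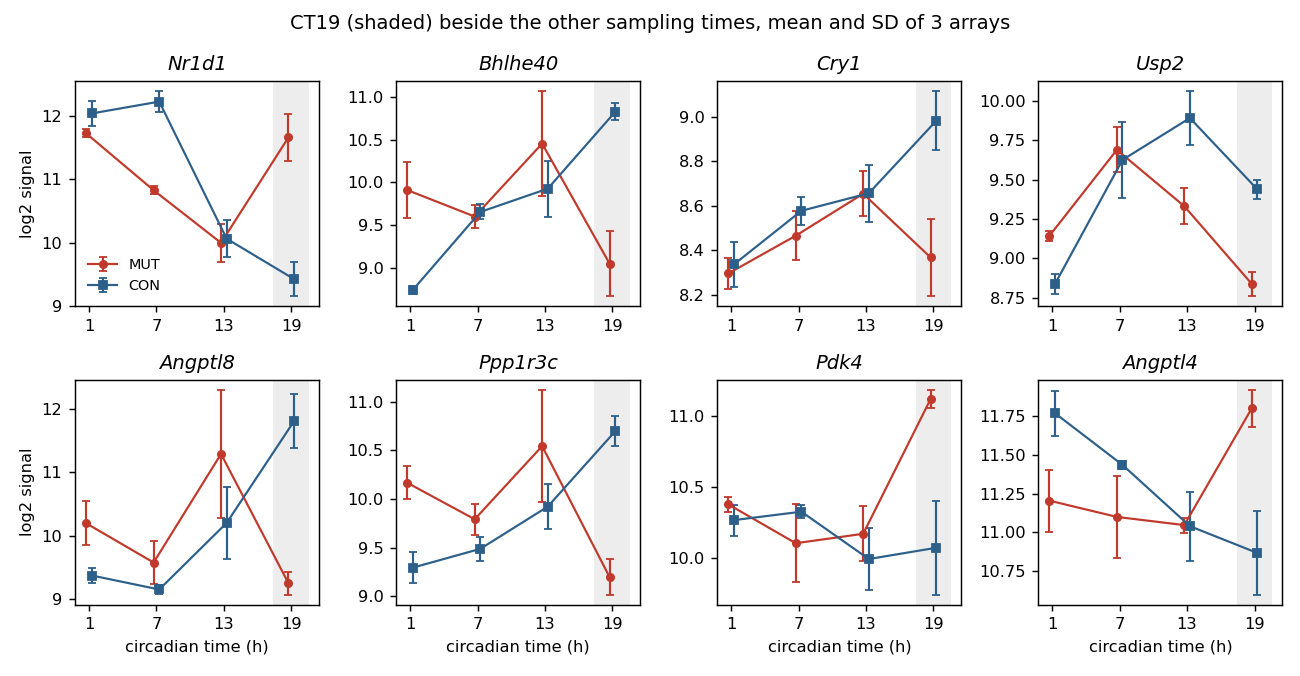
Points are means of 3 arrays with SD at CT1, CT7, CT13 and CT19 (circadian time in hours on the x axis, log2 signal on the y axis), in MUT (circles) and CON (squares), with CT19 shaded. In Nr1d1, MUT lies above CON at CT19 and below it at the other times, while Bhlhe40, Angptl8 and Ppp1r3c have their lowest MUT mean and their highest CON mean at CT19.

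Several of the genes that fell furthest act in lipid storage and glucose use. Angptl8, a secreted regulator of lipoprotein lipase that is induced by feeding, had 9.04, 9.35 and 9.36 in MUT, against 11.6, 12.3 and 11.53 in CON. All MUT arrays lay more than 2 units below the lowest CON array. It fell by 2.56 ± 0.33, or 5.9-fold (adjusted p = 0.00033), and the difference was -2.32 without CON replicate 2. The difference was opposite at the other times, where MUT exceeded CON by 0.78 on average, and the contrast of CT19 with those times was -3.34 (adjusted p = 4.07e-05).

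Ppp1r3c and Ppp1r3b encode glycogen-targeting subunits of protein phosphatase 1, which hold the enzyme on glycogen and promote its synthesis. Ppp1r3c had 9.02, 9.38 and 9.2 in MUT and 10.59, 10.87 and 10.63 in CON. It fell 2.82-fold, a difference of -1.497 ± 0.18 (adjusted p = 0.00019), and the groups were far apart. Ppp1r3b had 8.79, 8.71 and 8.88 in MUT and 9.75, 10.78 and 9.52 in CON. It fell by 1.22 ± 0.25 (adjusted p = 0.0142), with CON replicate 2 well above the other CON arrays, and without that array the difference was -0.84 (adjusted p = 0.147). Hk2, a hexokinase that phosphorylates glucose in insulin-sensitive tissue, had 9.02, 9.3 and 9.29 in MUT and 9.93, 10.4 and 9.6 in CON. It fell by 0.78 ± 0.13 (adjusted p = 0.00233) and was called in all 6 omissions. Sh2b2, an adaptor of the insulin receptor, had 9.47, 9.54 and 9.54 in MUT and 10.38, 10.9 and 10.07 in CON. It fell by 0.93 ± 0.13 (adjusted p = 0.000621). Over all genes tested, 0.812% were called lower and 1.93% higher. Of 17 insulin and glucose genes tested, 3 fell and 2 rose, the 2 being Pck1 and Irs2 (0.65, adjusted p = 0.0414). With CON replicate 2 left out, 2 were called lower, Ppp1r3c and Hk2, and 0 higher. Irs2 is an insulin receptor substrate, and Pck1 is described below.

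Among genes of fatty acid and triglyceride synthesis, 6 of 18 fell and none rose, beside 0.812% lower and 1.93% higher over all genes tested. The median difference was -0.61, against 0.00 over all genes tested. The median was -0.49 without CON replicate 2, and then none of the 18 was called. Of the 18, 16 were below zero. Genes of a list were measured on the same 6 arrays, so this and later counts of signs are not independent observations, and they were not tested. The list's median level, each gene taken relative to its mean over the 6 arrays, was -0.426, -0.318 and -0.099 in MUT and 0.066, 0.516 and 0.222 in CON, and the groups did not overlap. Srebf1, which encodes the lipogenic transcription factor SREBP-1, had 10.42, 10.55 and 10.44 in MUT and 11.18, 11.69 and 11.1 in CON. It fell by 0.86 ± 0.16 (adjusted p = 0.00613), and the difference was -0.67 without CON replicate 2 (adjusted p = 0.0777). Pnpla3, an acyltransferase and lipase of lipid droplets, had 11.02, 11.17 and 11.79 in MUT and 12.04, 12.43 and 12.18 in CON. It fell by 0.90 (adjusted p = 0.0172), and the contrast with the other times was -1.69. Mlxipl, which encodes the carbohydrate-responsive factor ChREBP, fell by 0.66 and Lpin1, a phosphatidate phosphatase, by 0.44 (adjusted p = 0.0146 and 0.014). Acacb, an acetyl-CoA carboxylase, fell by 0.61 and Thrsp, a regulator of lipogenesis, by 0.70 (adjusted p = 0.0201 and 0.0224). The central enzymes Acly, Elovl6, Fasn and Scd1 differed by -1.03, -0.94, -0.49 and 0.01 without passing the test (adjusted p = 0.0917, 0.103, 0.0871 and 0.918).

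Cholesterol synthesis genes had a median difference of -0.35, and 3 of 13 fell, with none higher, beside 0.812% lower over all genes tested. All 13 were below zero. Insig1, which retains SREBP in the endoplasmic reticulum, had 11.0, 11.28 and 11.48 in MUT and 11.89, 12.64 and 12.36 in CON. It fell by 1.04 ± 0.22 (adjusted p = 0.0172), and Cyp51 and Sqle, enzymes of the pathway, fell by 0.88 and 0.56 (adjusted p = 0.0243 and 0.0365). Without CON replicate 2, which was the highest CON array for the list, none of the 13 was called and the median was -0.23. A further pair of genes outside these lists acts on lipid synthesis. Mid1ip1, which promotes the polymerisation of acetyl-CoA carboxylase, had 8.93, 9.02 and 9.06 in MUT and 10.02, 10.65 and 9.74 in CON, and fell by 1.13 ± 0.18 (adjusted p = 0.00233). Aacs, which activates acetoacetate for lipid synthesis, had 9.48, 9.58 and 9.87 in MUT and 10.61, 11.28 and 10.89 in CON, and fell by 1.29 ± 0.20 (adjusted p = 0.00115). Both were called in all 6 omissions of an array.

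Pdk4, Angptl4 and Pck1, which are known to rise on fasting, were among the 12 called genes highest in MUT. No list of fasting genes was set in advance, and these 3 were grouped from those highest differences. Pdk4, the kinase that inhibits pyruvate dehydrogenase and so spares glucose, had 11.05, 11.17 and 11.14 in MUT, against 10.07, 9.75 and 10.4 in CON. It rose by 1.04 ± 0.14, or 2.06-fold (adjusted p = 0.000374), and the MUT arrays lay closer together than the CON arrays. Angptl4, an inhibitor of lipoprotein lipase in fat, had 11.87, 11.66 and 11.87 in MUT and 10.85, 10.61 and 11.15 in CON. It rose by 0.93 ± 0.13 (adjusted p = 0.000621), and the groups did not overlap. Both genes were called in all 6 omissions. Pck1, which makes glycerol phosphate for re-esterification in fat, had 13.2, 13.09 and 13.08 in MUT and 12.23, 11.29 and 12.56 in CON. It rose by 1.10 ± 0.22 (adjusted p = 0.014). CON replicate 2 was the lowest array, and without it the difference was 0.73 (adjusted p = 0.124).

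Lipolysis and fatty acid handling genes went in both directions, with 2 of 19 higher and 2 lower, beside 1.93% and 0.812% of all genes tested. Besides Angptl4 and Angptl8, G0s2, an inhibitor of adipose triglyceride lipase, fell by 0.86 (adjusted p = 0.0105), with 9.38, 9.61 and 9.3 in MUT and 10.07, 10.35 and 10.44 in CON. Gpihbp1, which carries lipoprotein lipase to the capillary wall, rose by 0.36 (adjusted p = 0.0311). G0s2 (adjusted p = 0.0777) and Gpihbp1 (adjusted p = 0.221) lost their calls without CON replicate 2, which left 1 higher and 1 lower. The lipases themselves were not called. Of 13 fatty acid oxidation genes tested, only Pdk4 was called, and Cpt1a differed by 0.35 (adjusted p = 0.0832). Among 9 adipokines, Nampt, which makes NAD precursors, fell by 0.41 and Nrg4 by 0.37 (adjusted p = 0.043 and 0.0339), neither called without CON replicate 2. Nampt kept its call in 0 of the 6 omissions of an array and Nrg4 in 1. Lep, which encodes leptin, at -0.24 and Adipoq, which encodes adiponectin, at 0.12 did not pass the test, nor did Sfrp5 at 1.08 (adjusted p = 0.302).

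**Figure D4:**
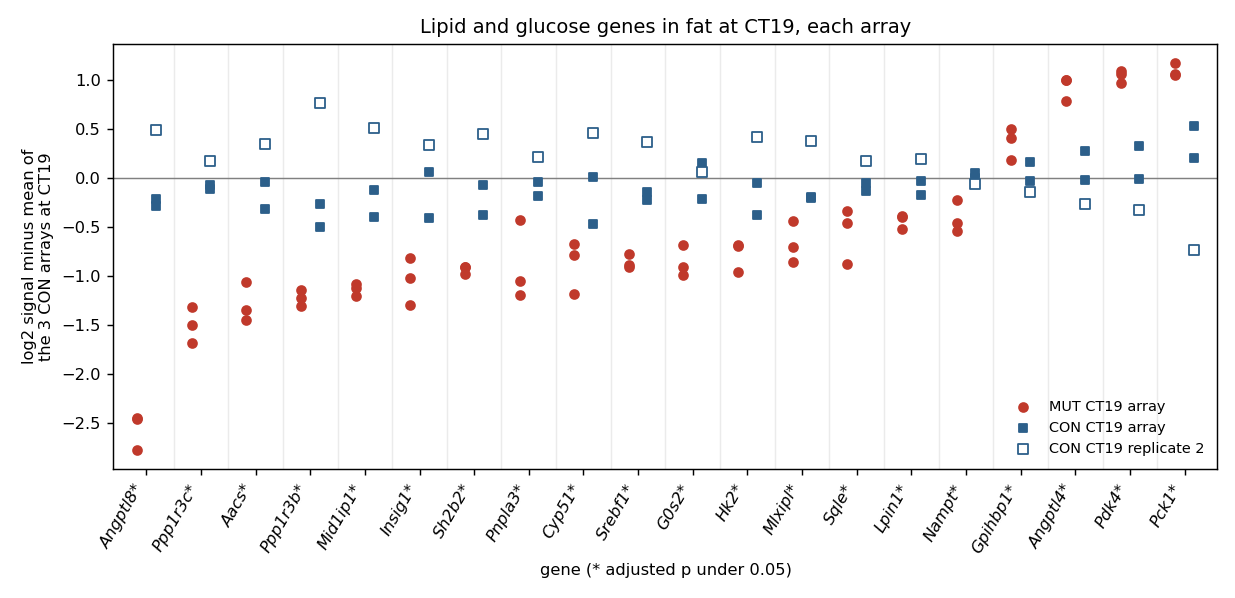
Each point is 1 array at CT19, as log2 signal minus the mean of the 3 CON arrays, for lipid and glucose genes that were called, with MUT as circles to the left of CON as squares and CON replicate 2 as an open square. Angptl8 lies lowest in MUT, and the genes from Gpihbp1 to Pck1 lie above the CON mean, while CON replicate 2 is often the array farthest from the MUT arrays.

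Several genes outside these pathways were among those that differed most. Zim1, an imprinted gene that encodes a zinc finger protein, had 10.28, 10.16 and 9.81 in MUT and 8.57, 8.0 and 8.28 in CON. It rose by 1.80 ± 0.25 (adjusted p = 0.000476) and was called in all 6 omissions. It is on chromosome 7, as is Arntl, 841 tested genes away. The called gene nearest to Arntl among those named here was Trim12c, a member of a large tripartite motif family, 73 tested genes away. It rose by 1.07 (adjusted p = 0.0254), a call kept in 3 of the 6 omissions and lost without CON replicate 2 (adjusted p = 0.182). Its signal was low, at the 8.1th percentile of genes tested. MUT was above CON at the other times too, by 0.63 on average. Limma's contrast of CT19 with those times was 0.44 and did not pass (adjusted p = 0.521). None of the 40 genes nearest to Arntl, 20 on each side, was called, with differences from -0.86 to 0.37. Of these 40, 10 were at an unadjusted p under 0.05, beside 3537 of all 15526 genes tested, which is a similar share. Syt10, the locus that holds Cre, had 7.25, 7.3 and 7.43 in MUT and 7.53, 7.68 and 7.64 in CON, close to the lowest signals tested, and its difference of -0.29 was not called (adjusted p = 0.0544). Phlda3, a p53 target, fell by 0.70 (adjusted p = 0.00233) and was called in all 6 omissions.

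Mir328, a microRNA locus, had 11.15, 11.38 and 12.16 in MUT and 8.8, 8.88 and 9.5 in CON. It rose by 2.51 ± 0.66 (adjusted p = 0.041), the highest called difference, but the call was kept in 1 of the 6 omissions and lost without CON replicate 2 (adjusted p = 0.204). Cma2, a mast cell chymase, had 8.75, 9.62 and 10.14 in MUT and 7.38, 7.55 and 8.02 in CON and rose by 1.85 (adjusted p = 0.0348), a call also kept in 1 omission and lost without that array (adjusted p = 0.2). At the other times MUT was also above CON, by 1.03 for Mir328 and 0.69 for Cma2 on average. Limma's contrast of CT19 with those times was passed by neither (adjusted p = 0.393 and 0.323). Of 3 mast cell markers tested none was called, and their median level overlapped between the groups, at 0.449, 0.186 and -0.283 in MUT and 0.029, -0.35 and -0.201 in CON. Gbp4, an interferon-inducible guanylate-binding protein, rose by 1.07 (adjusted p = 0.0284), while 0 of 7 interferon genes were called or at an unadjusted p under 0.05, their median being 0.01. Rbp7, a retinol-binding protein of adipose endothelium, rose by 0.86 and Tes, a protein of focal adhesions, by 0.85. Sult1e1, an estrogen sulfotransferase, Cyp2c55, a cytochrome P450, and Snora62, a small nucleolar RNA, fell by 1.23, 0.96 and 0.92. Of these 5 genes, none was called without CON replicate 2.

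The remaining lists held few calls. No member passed the test among heat shock proteins (11 tested), inflammation genes (9), extracellular matrix (14), oxidative phosphorylation (18), cell cycle (8), proteasome (29), cytosolic ribosomal proteins (23), adipogenic transcription factors (12) and nuclear receptors beyond REV-ERB (21). Their medians lay between -0.15 and 0.16. Of the 18 oxidative phosphorylation genes 16 were below zero, and of the 14 extracellular matrix genes 12 were above. With all genes tested split into 10 bins by mean signal, the median difference was 0.075 in bin 9 and 0.059 in bin 10, the brightest. Outside these lists, the cytochrome oxidase subunit Cox5b (-0.54) and the small heat shock protein Hspb8 (-0.49) were called lower, as given under other observations. At an unadjusted p under 0.05, where 3537 of all genes tested lay, there were 5 heat shock, 4 extracellular matrix and 2 inflammation genes, with 1 each of cell cycle and oxidative phosphorylation. The same level held 3 proteasome, 5 ribosomal, 3 adipogenic and 6 nuclear receptor genes. Among glucocorticoid targets, 1 of 14 was called, Pdk4. Among 12 immediate early genes, Myc rose by 0.47 (adjusted p = 0.0365) and the stress gene Ier3 fell by 0.61 (adjusted p = 0.014). Atf4, a factor of the unfolded protein response, fell by 0.29 (adjusted p = 0.0316), the 1 call in 14. Sesn2 rose by 0.41 (adjusted p = 0.0414) and, with Phlda3, made up the 2 calls in 9 p53 targets. Slc7a8, an amino acid transporter, rose by 0.58 (adjusted p = 0.0146), the 1 call among 12 of its kind. For Slc7a8, MUT was above CON by 0.34 on average at the other times, and limma's contrast with them did not pass (adjusted p = 0.471). Myc, Ier3, Atf4, Sesn2 and Slc7a8 all lost their calls without CON replicate 2 (adjusted p = 0.2, 0.0764, 0.221, 0.258 and 0.16), and Myc kept its call in 1 of the 6 omissions.

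Markers of other cell types were set beside these results. Fewer cells of a type and less RNA per cell cannot be told apart in whole fat. Adipocyte genes, the main cell type by level, held no calls among 11, with a median of 0.07. Endothelial genes had a median of 0.24 and 1 call among 9, Cldn5 at 0.67 (adjusted p = 0.00354), with 6 of the 9 at an unadjusted p under 0.05. Without CON replicate 2 the median was 0.19 and Cldn5 was not called (adjusted p = 0.0504). All 9 were above zero, and their median level was 0.137, 0.106 and 0.089 in MUT and 0.013, -0.159 and -0.162 in CON. Gpihbp1 and Rbp7 were also higher in MUT. The part of the endothelial shift in the differences of Gpihbp1 and Rbp7 was not tested. Mesothelial genes had a median of 0.27 with no call among 9, and their median level, 0.279, 0.29 and -0.155 in MUT and 0.027, -0.297 and -0.122 in CON, overlapped between the groups. No member was called among 12 macrophage, 8 fibroblast, 8 smooth muscle, 6 brown adipocyte, 13 hypothalamic and neuronal, 4 epididymal, 4 B cell, 3 skeletal muscle and 2 T cell genes. At an unadjusted p under 0.05 these held at most 2 members each.

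**Figure D5:**
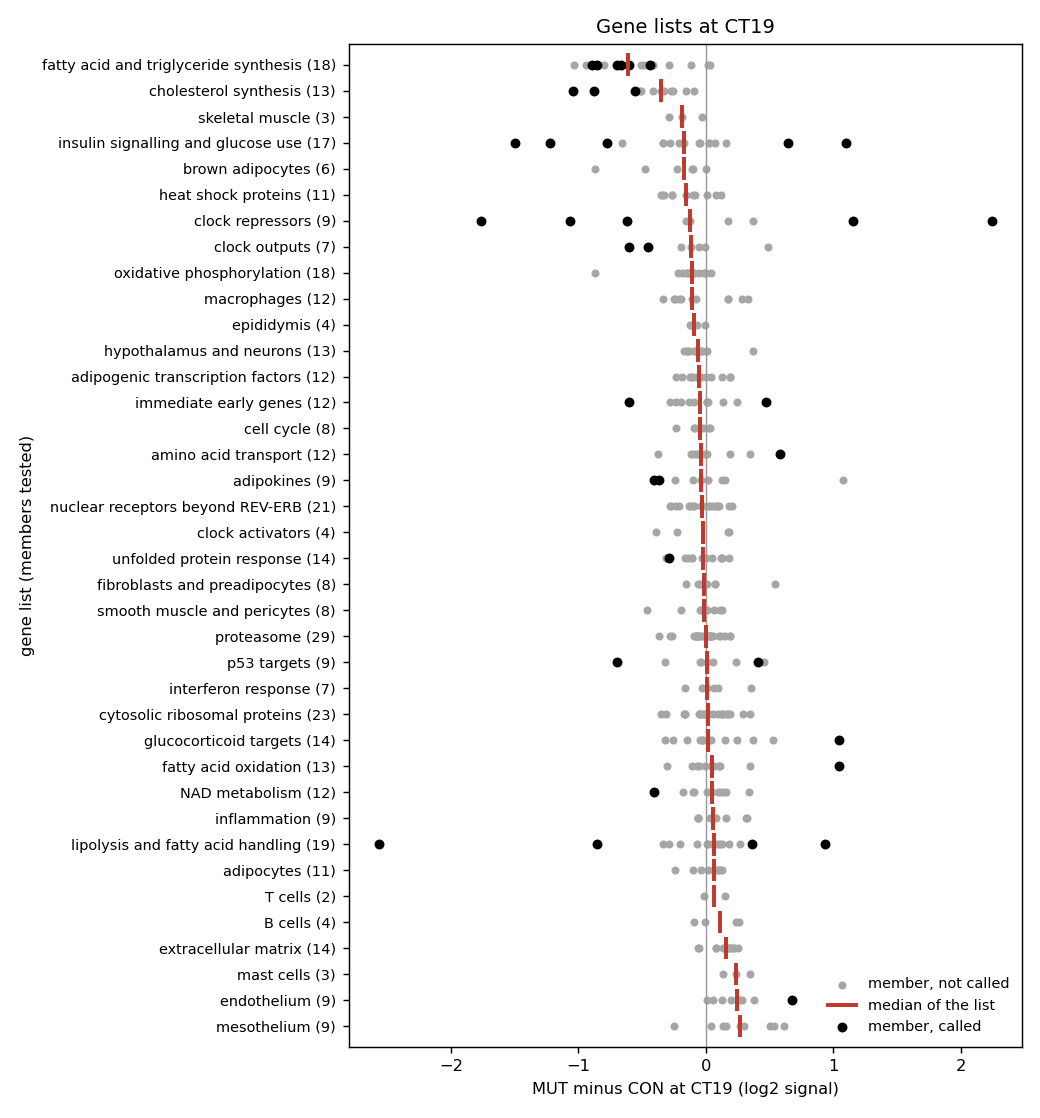
Each point is 1 gene of a list, at its MUT minus CON difference at CT19 in log2 signal, black if called and grey if not, with a bar at the list's median and the number of members tested in parentheses. Fatty acid and triglyceride synthesis and cholesterol synthesis have the lowest medians, -0.61 and -0.35, and the clock repressors have called members on both sides of zero.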

How the data were processed

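The study measured RNA of epididymal fat from 24 mice on Affymetrix arrays. Per the labels' protocols, total RNA was isolated with Trizol and biotin-labelled. The deposited values are log2 signals per probe set, made with RMA and Affymetrix Expression Console per the submitters' processing notes. The notes give no versions.

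Of 34390 probe sets, 23521 carry 1 symbol, 1814 several and 9055 none, and only the first kind was used. The brightest probe set per gene was kept, and a level filter at the 30th percentile (mean log2 signal 7.416) left 15526 of 22180 genes. The main test was limma 3.58.1 (R 4.3.3) with a mean for each of 8 groups over the 24 arrays (16 residual degrees of freedom, Benjamini-Hochberg adjustment, threshold 0.05, two-sided). The second contrast set the CT19 difference against the mean of those at CT1, CT7 and CT13. The fits were run on simulated data with independent errors and 200 genes changed at CT19. At 1.5-fold the CT19 comparison recovered 95% of these, with 9 false calls, and at 1.2-fold 10.5%, with 1. No simulated array stood apart as CON replicate 2 did, so these runs cannot show the effect of such an array. Named genes were all clock genes, the 12 highest and 12 lowest differences, the 6 highest and 6 lowest of the second contrast, up to 4 called members per other list (else the 2 with the smallest p), Syt10 and called neighbours of Arntl. Acacb, Thrsp, Irs2, Acly, Elovl6, Fasn, Scd1, Cpt1a, Lep, Adipoq and Sfrp5 were named after their values were seen. The members and gene lists were chosen with earlier results of these data known. The number of arrays, 3 per group, limits the precision. The design text gives 3 mice per time point, and title letters were taken as replicate numbers. Same-numbered MUT and CON arrays correlated at 0.209, -0.14 and -0.072 in their deviations from the group means, and the numbers were not used as pairs. At 3 arrays per group, these values cannot show whether a number marks mice handled together.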

Additional observations from a re-analysis of the deposited data

Results flagged for a closer look

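The MUT minus CON difference at CT19 was unlike the mean of that difference at CT1, CT7 and CT13 in 291 genes by limma's test of the difference between times. Values below are the CT19 difference minus that mean on the log2 scale, and every named gene passed the test at an adjusted p under 0.05 on all arrays. Among clock genes it was 2.84 for Nr1d1, 1.55 for Nr1d2 and 0.88 for Dbp, and -2.31 for Bhlhe40, -1.35 for Bhlhe41, -0.76 for Nfil3, -0.66 for Arntl, -0.56 for Cry1 and -0.54 for Usp2. Arntl and Dbp passed this test without being called at CT19 alone. Without CON CT19 replicate 2, the test was not passed by Arntl (adjusted p = 0.181), Dbp (0.109), Usp2 (0.0904), Bhlhe41 (0.0831) and Cry1 (0.0532).

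Among lipid and glucose genes, values above zero were 1.41 for Pck1, 1.23 for Angptl4, 1.02 for Pdk4 and 0.44 for Gpihbp1. Values below zero were -3.34 for Angptl8, -2.10 for Ppp1r3c, -1.69 for Pnpla3, -1.68 for Ppp1r3b, -1.55 for Mid1ip1, -1.36 for Aacs, -1.21 for Insig1, -1.09 for Sh2b2 and -1.03 for G0s2. Smaller ones were -0.96 for Cyp51, -0.93 for Srebf1, -0.86 for Hk2, -0.70 for Sqle, -0.66 for Mlxipl, -0.60 for Nampt and -0.50 for Lpin1. Without that array the adjusted p was 0.0532 for Nampt, 0.0665 for Srebf1, 0.104 for Lpin1, 0.107 for Insig1, 0.146 for Gpihbp1, 0.148 for Sqle, 0.191 for Mlxipl and 0.195 for Cyp51, while the other genes of this paragraph passed.

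Among other genes the value was 1.86 for Pisd-ps3, 1.55 for Zim1, 1 for Rbp7, 0.79 for Cldn5 and 0.66 for Myc, and -1.72 for Pgm3, -1.07 for Phlda3, -0.97 for Snora62 and -0.74 for Ier3. Pisd-ps3, a pseudogene, had log2 signals of 10.79, 10.7 and 9.1 in MUT and 9.1, 9.31 and 9.63 in CON at CT19, which overlapped. Pgm3, an enzyme of amino sugar synthesis, had 8.61, 8.63 and 8.28 in MUT and 9.63, 10.89 and 8.41 in CON, with CON replicate 2 the highest. Neither was called at CT19 alone. Without CON replicate 2 the comparison of times was not passed by Pisd-ps3 (adjusted p = 0.0762) and Pgm3 (0.148), nor by Zim1 (0.0532), Myc (0.072), Snora62 (0.109) and Rbp7 (0.125).

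Probe sets that carry no symbol or several were not used above. Of 6024 tested, 40 were called higher in MUT and 46 lower, 1.43%, against 1.71% of all 24073 probe sets tested with them.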

How the results depend on the processing

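Genes called at CT19 numbered 425 (299 higher, 126 lower). They numbered 187 in a fit of only the 6 CT19 arrays (117 higher, 70 lower), 662 with arrays shifted to the same median (563, 99), 1642 with array weights (976, 666) and 72 when 1.5-fold was also required (36, 36). Leaving out 1 array of the 24 gave 36 to 623 genes (18 to 452 higher, 18 to 200 lower), the lowest being 36 without CON CT19 replicate 2, beside 50 and 61 when MUT CT19 replicate 1 or 2 was omitted. The contrast with the other times called 291 genes, 643 with array weights and 92 at 1.5-fold, and 40 to 402 with 1 array left out, 40 without CON CT19 replicate 2 and 85 and 164 without MUT CT19 replicates 1 and 2. Why the counts moved was not tested. Replicate numbers were not used as pairs in the main fit. A block for replicate number gave 330 genes in all arrays, against 425 without the block. In the 6 CT19 arrays it gave 378, against 187 without it. For the contrast with the other times it gave 245, against 291.

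Of 45 genes called at CT19 among the 104 named by the rule, none changed direction. In the fit of only the 6 CT19 arrays, 12 of the 45 lost their call. Among these 104, signs turned only in 4 that were not called. Genes named after their values were seen are not in these counts. With 1 CT19 array left out, Tef ranged from -0.099 to 0.077 (0.042 without CON replicate 3, 0.077 without MUT replicate 3), Tspan4 from -0.104 to 0.01, Cd4 from -0.067 to 0.06 (0.012 without CON replicate 2) and Acta1 from -0.386 to 0.118. Tef was 0.034 with arrays shifted to the same median, and Cd4 was 0.033 with that and with quantile normalization and 0.006 with array weights.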

Other observations

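Beyond the genes described, 14 more were called whichever of the 6 CT19 arrays was left out, and they were named after their values were seen. Higher in MUT were Jade3 (0.73), Spata6 (0.63), Ptch1, the Hedgehog receptor (0.58), Phactr2 (0.48), Npr2, a natriuretic peptide receptor (0.47), Klf11 (0.45), Erg, an endothelial transcription factor (0.44), and Tpst1, a tyrosylprotein sulfotransferase (0.44). Lower in MUT were the small nucleolar RNA Snord42b (-0.69), the olfactory receptor Olfr122 (-0.62), Cox5b, a subunit of cytochrome oxidase (-0.54), the microRNA locus Mir107 (-0.51), the small heat shock protein Hspb8 (-0.49) and Sap30, a corepressor subunit (-0.41). Olfr122 and Sap30 had low signals, at the 12.1th and 15th percentile of genes tested. Their mean differences at the other times were -0.34 and -0.11, and limma's contrast with those times was passed by neither (adjusted p = 0.163 and 0.0642). Cox5b had log2 signals of 11.54, 11.69 and 11.51 in MUT and 12.03, 12.08 and 12.25 in CON, and the groups did not overlap.

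The MUT minus CON difference at CT19 also varied with signal over all genes. With the tested genes ordered by mean signal and split into 10 bins, the median difference was -0.059 in the dimmest and 0.059 in the brightest. The interquartile range of the arrays was 2.122, 2.185 and 2.049 in MUT and 2.053, 2.023 and 2.084 in CON.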
